A study of Macaca mulatta with 136 samples.

Results

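The neural retina of the fovea was compared with that of the nasal location in 8 of the 32 libraries of the series, 4 from each location. The libraries were chosen by their labels alone, from the tissue (retina) and the location (fovea or nasal). Each library was made by poly-A selection from the total RNA of a 2 mm punch, taken after death, from which the neural retina had been dissected away from the underlying RPE/choroid. The punches came from the right and left eyes of 2 rhesus macaques (Macaca mulatta), labelled RM03 and RM04, with no treatment named for either group. The fovea punch was cut from the macular/foveal region and so takes in more than the central pit. Eye 1 is the right and eye 2 the left eye of RM03, and eye 3 is the right and eye 4 the left eye of RM04. Values listed for a location follow this order, every eye gave 1 library at each location, and n is 4 eyes from 2 animals throughout. Fellow eyes share an animal, so the p-values measure the spread between eyes of these 2 animals and not between 4 animals.

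The fovea is the small pit in the primate macula that serves high-acuity vision. Its centre holds densely packed cones and few or no rods, its inner neurons are displaced to a surrounding slope, and the ganglion cells that serve it are piled into several layers around the pit. As commonly described, the nasal retina lies on the other side of the optic disc. It has a rod-dominated photoreceptor layer with a thinner ganglion cell layer, and it forms from the nasal side of the embryonic eye cup. Other axis-determining transcription factors are expressed there than on the temporal side, in which the fovea develops. The labels name the punches used here only as nasal, without a distance from the fovea or the disc. A regional contrast in whole retina mixes the proportions of the cell classes with the positional identity of the tissue.

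Expression differed broadly between the locations. Of 15132 genes tested, 8767 (57.9%) were called at an adjusted p under 0.05, with 4450 (29.4%) higher in the fovea and 4317 (28.5%) higher in the nasal retina. Of the called genes, 1996 (13.2% of those tested) changed by more than 1 on the log2 scale, 1109 toward the fovea and 887 toward the nasal side, and 308 changed by more than 2. Many of the calls were small, since 3695 called genes had an absolute log2 fold change under 0.5, and the median over all genes tested was 0.35 with a median standard error of 0.09. The 4 fovea values did not overlap the 4 nasal values in 6475 of the 8767 called genes and in 6633 of all 15132 tested. The direction was the same in 4 of 4 eyes for 8419 called genes and for 9731 of all tested. The calls were made on these same values, so these counts are no separate support for them. Levels are CPM, the counts scaled to library size, after TMM normalization, given as mean ± SD over 4 eyes, a positive log2 fold change means higher in the fovea, and calls are from edgeR's quasi-likelihood test with the animal as covariate, with p-values adjusted by Benjamini-Hochberg across every gene tested.

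**Figure D1:**
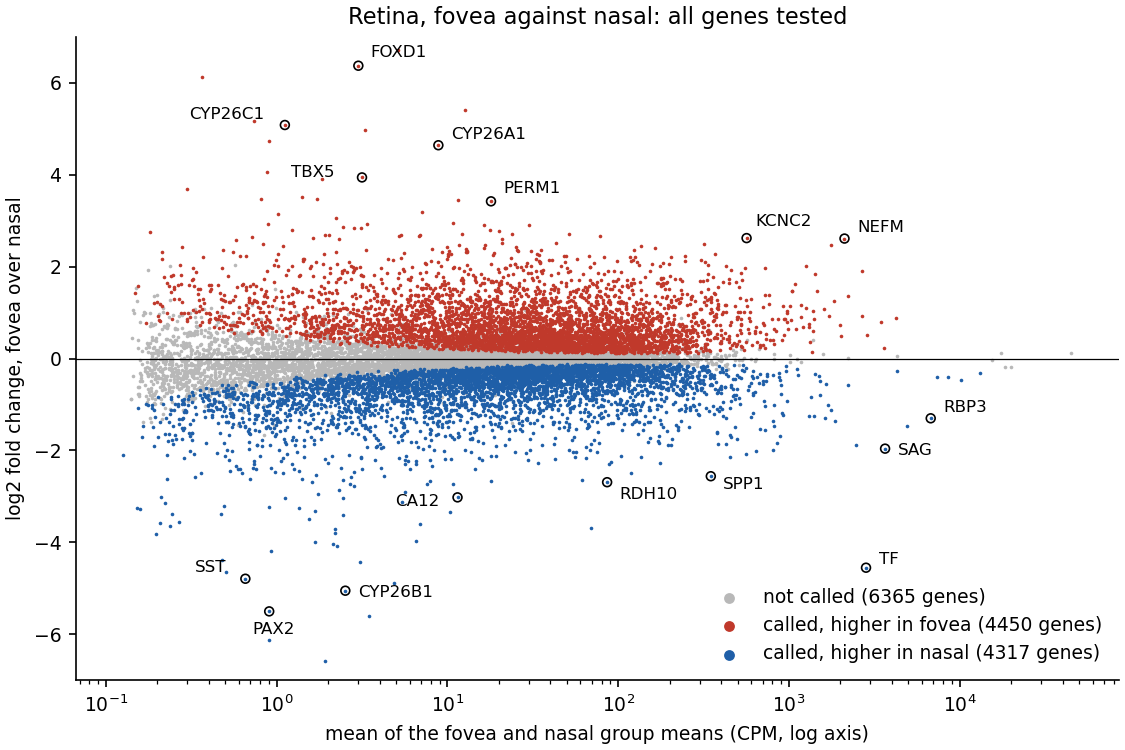
Each point is a gene tested, with the mean of its fovea and nasal levels in CPM on a log axis and its log2 fold change of fovea over nasal on the vertical axis. Red and blue points are called genes and circles mark genes named in the text. TF stands apart among abundant genes toward the nasal side and NEFM and KCNC2 toward the fovea, while the largest folds sit at low CPM. Genes past 7 in size lie outside the axis.

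The summed estimated counts were 48224379 to 58821370 in the fovea libraries and 57012730 to 64466280 in the nasal libraries, each from 5 lanes on 2 flow cells that both locations shared. The difference between fovea and nasal retina within an eye correlated between eyes across all genes tested, with Pearson's r from 0.677 to 0.872, which describes these genes and not independent replicates. Over the 1000 most variable genes, libraries of the 2 locations of an eye lay 1.90 to 2.14 log2 units apart (root mean square), against 0.586 to 1.19 for fellow eyes and 1.75 to 1.99 for different animals at the same location. Libraries of different locations and different eyes lay 1.909 to 2.584 apart, with a median of 2.52 against 1.8 for different animals at the same location.

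Rod photoreceptor genes were lower in the fovea without exception, and cone genes were higher. Rods and cones use separate sets of proteins for phototransduction, the cascade that turns absorbed light into a change in membrane current. All 8 rod phototransduction genes tested were called higher in the nasal retina (median log2 fold change -1.86), and all 10 cone phototransduction genes tested were called higher in the fovea (median 0.76). All 12 tested genes that rods and cones share were called higher in the nasal retina (median -1.11). Over all genes tested, 28.5% were called toward the nasal side and 29.4% toward the fovea. The gene lists were chosen with earlier results of these data known. Here and below, the shares over all genes are a reference, and no list was tested as a set. Fewer cells of a type and less RNA per cell cannot be told apart in these bulk samples. The summed level of the rod list was 6247 to 7028 CPM in the fovea and 20286 to 23184 CPM in the nasal retina, and that of the cone list was 3853 to 4570 CPM and 2052 to 3065 CPM.

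SAG, the rod arrestin that shuts off activated photopigment, was at 1293, 1519, 1488 and 1632 CPM in the fovea and 5467, 4608, 6577 and 6648 CPM in the nasal retina (log2 fold change -1.96, standard error 0.09, adjusted p = 2.54e-07). PDE6B, a catalytic subunit of the rod phosphodiesterase, was at 247, 284, 245 and 242 CPM in the fovea and 1028, 1049, 1060 and 1005 CPM in the nasal retina (log2 fold change -2.02, standard error 0.06, adjusted p = 4.27e-08). Every nasal value was at least 3 times as high as every fovea value for PDE6B, and neither gene's groups overlapped. GNB1, PDE6A, CNGA1, CNGB1, GNGT1 and SLC24A1, further parts of the rod cascade, had log2 fold changes from -1.98 to -1.47. Among the cone genes, CNGA3, a subunit of the cone cyclic nucleotide-gated channel, was at 56, 59.8, 71.7 and 65.4 CPM in the fovea and 30.3, 26.2, 37.2 and 34.6 CPM in the nasal retina (log2 fold change 0.98, standard error 0.07, adjusted p = 2.39e-06). SLC24A2, the cone sodium/calcium-potassium exchanger, was at 203, 181, 194 and 187 CPM in the fovea and 82.1, 73.8, 98.2 and 102 CPM in the nasal retina (log2 fold change 1.11, standard error 0.08, adjusted p = 4.43e-06). The fovea values lay above the nasal values in all eyes for both. GNAT2, the cone transducin, showed a log2 fold change of 0.92, and its nasal values of 107 and 85.7 CPM in RM03 lay below those of 149 and 151 CPM in RM04. The smallest cone change was in GUCA1C, a guanylate cyclase activator, with 203 ± 10.7 CPM in the fovea and 166 ± 25.9 CPM in the nasal retina (log2 fold change 0.30, standard error 0.10, adjusted p = 0.0276), and it was no longer called without eye 1 (adjusted p = 0.0666), without eye 2 (0.0952), or without the fovea library of eye 2 or the nasal library of eye 1 or 2 (0.0723, 0.0662 and 0.0521). The cone genes GNGT2 and CNGB3 were called although their groups overlapped.

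Of 12 transcription factors of photoreceptor fate, 7 were called higher in the nasal retina and 3 higher in the fovea. The share called was 83.3%, against 57.9% of all genes. NRL, which commits photoreceptor precursors to the rod fate, was at 321, 438, 370 and 367 CPM in the fovea and 1278, 1151, 1423 and 1479 CPM in the nasal retina (log2 fold change -1.83, standard error 0.11, adjusted p = 8.94e-07). NR2E3, its partner in repressing cone genes, and ESRRB, a regulator of rod survival, changed by -1.89 and -1.84 on the log2 scale. CRX and OTX2, which act in rods and cones alike, changed less, by -1.02 and -0.68. RXRG, a retinoid receptor of cones, was at 189, 178, 173 and 171 CPM in the fovea and 59.1, 56.4, 72.2 and 66.4 CPM in the nasal retina (log2 fold change 1.49, standard error 0.08, adjusted p = 4.94e-07), with no overlap between the groups. THRB, the thyroid hormone receptor that specifies cone subtype, was at 40.8 ± 1.74 CPM in the fovea and 36.9 ± 2.92 CPM in the nasal retina and was not called (adjusted p = 0.106).

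**Figure D2:**
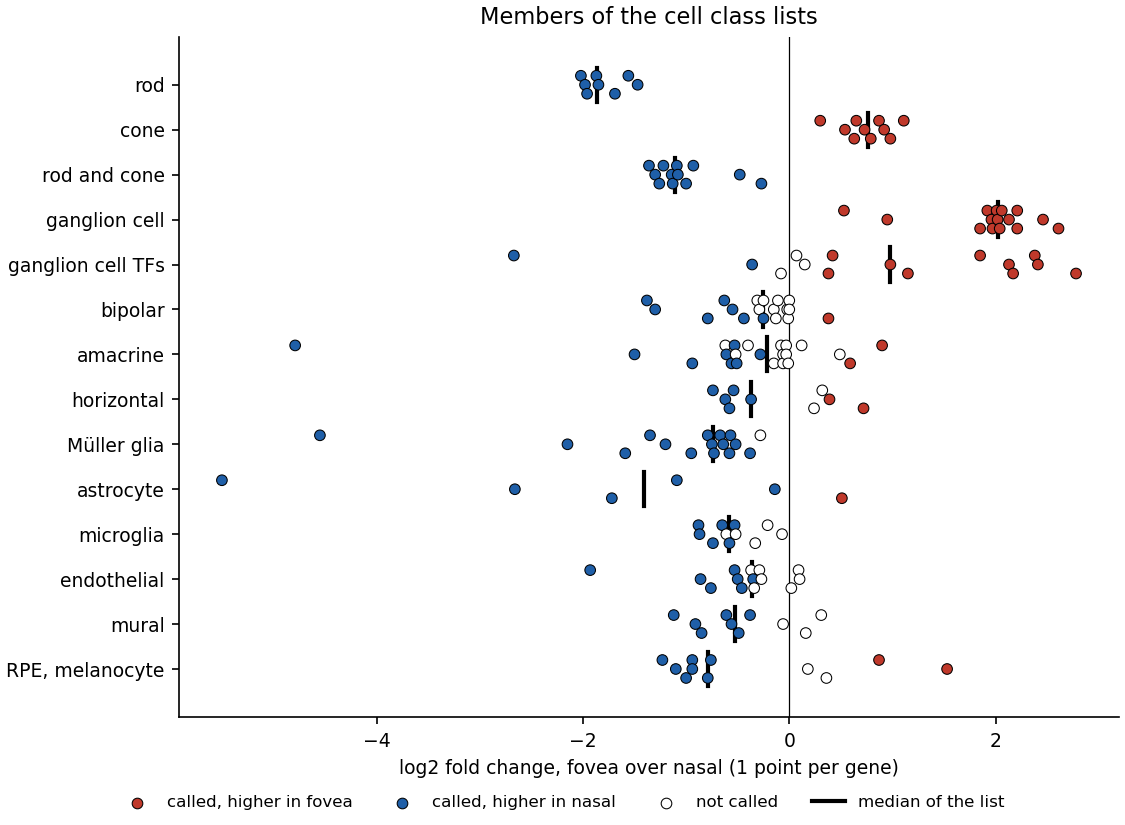
Each point is a gene of a marker list and the horizontal axis is its log2 fold change of fovea over nasal. Red and blue points passed an adjusted p of 0.05, white points did not, and the black bar is the median of the list. Rod and cone lists sit on opposite sides of 0, the ganglion cell markers lie furthest toward the fovea, and the Müller glia list lies toward the nasal side with TF at -4.55 far from its other members.

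Ganglion cell genes were higher in the fovea, 13 of the 15 markers by more than 1 on the log2 scale. All 15 ganglion cell markers tested were called higher in the fovea, with a median log2 fold change of 2.02, against 29.4% of all genes called in that direction. Their summed level was 13549 to 15309 CPM in the fovea and 2990 to 3392 CPM in the nasal retina. NEFM, the medium subunit of the neurofilaments that fill ganglion cell axons, was at 3956, 3751, 3208 and 3625 CPM in the fovea and 645, 584, 613 and 531 CPM in the nasal retina (log2 fold change 2.61, standard error 0.07, adjusted p = 3.77e-08). NEFL and NEFH, the light and heavy subunits, changed by 2.46 and 2.02. RBPMS, an RNA-binding protein that marks nearly all ganglion cells, was at 336 ± 23.3 CPM in the fovea and 72.8 ± 10.7 CPM in the nasal retina (log2 fold change 2.21, standard error 0.07, adjusted p = 4.76e-08). SLC17A6, the glutamate transporter of their synaptic vesicles, changed by 2.13, and THY1, a surface glycoprotein, by 2.01. GAP43, a growth cone protein, and RBPMS2 changed least, by 0.95 and 0.53, and the RBPMS2 groups overlapped. The entry used for TUBB3 is uncertain, since 2 identifiers carry that symbol.

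Of 15 ganglion cell transcription factors tested, 10 were called higher in the fovea and 2 higher in the nasal retina. These calls, 80% of the factors tested, compare with 57.9% of all genes. POU4F1 and POU4F2 are POU-domain factors needed for ganglion cell survival and axon growth. POU4F2 was at 93.6, 86.8, 95.6 and 98.4 CPM in the fovea and 18.5, 20, 25 and 19.8 CPM in the nasal retina (log2 fold change 2.17, standard error 0.08, adjusted p = 8.55e-08), and POU4F1 changed by 2.41. EBF1, EBF2 and EBF3, helix-loop-helix factors, changed by 2.13, 2.78 and 1.85, and TBR1, a T-box factor of some ganglion cell subtypes, by 2.38. FOXP2, a forkhead factor found in a subset of ganglion cells, ran the other way, at 5.01, 4.89, 4.17 and 4.68 CPM in the fovea and 42.6, 41.4, 19.5 and 22.4 CPM in the nasal retina (log2 fold change -2.67, standard error 0.17, adjusted p = 1.38e-06). The fovea values of FOXP2 lay close together, whereas its nasal values in RM03 were about 2 times those in RM04. SATB1, for which 2 identifiers carry the symbol, was also called higher in the nasal retina (-0.36), with overlapping groups, and 3 factors were not called.

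Interneuron markers showed smaller and mixed differences. Of 18 bipolar cell markers, 7 were called higher in the nasal retina, 1 was higher in the fovea and 10 were not called (median -0.25). The corresponding numbers were 8, 2 and 12 of 22 amacrine markers (median -0.21) and 5, 2 and 2 of 9 horizontal cell markers (median -0.37). The shares called were 44.4% of bipolar, 45.5% of amacrine and 77.8% of horizontal cell markers, against 57.9% of all genes. PRKCA, the protein kinase C of rod bipolar cells, was at 20.4, 18.1, 26.6 and 28.5 CPM in the fovea and 54.1, 54.2, 62.6 and 69.7 CPM in the nasal retina (log2 fold change -1.38, standard error 0.07, adjusted p = 5.81e-07). GRM6 and TRPM1, the glutamate receptor and the channel of ON bipolar cells, changed by -0.79 and -0.55, and CABP5, a calcium-binding protein of bipolar cells, by -0.63. GRIK1, a kainate receptor subunit of OFF bipolar cells, was the marker called higher in the fovea (log2 fold change 0.38, standard error 0.07, adjusted p = 0.00101).

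The neuropeptide somatostatin (SST) gave the largest change of any amacrine marker. It was at 0.0217, 0.0185, 0.104 and 0.0173 CPM in the fovea and 1.58, 1.71, 1.15 and 0.621 CPM in the nasal retina, from summed counts of 9 in the fovea and 303 in the nasal retina, a ratio of 29.8 (adjusted p = 4.35e-05). All 4 nasal values exceeded all fovea values, but the level is low in both. CARTPT, another neuropeptide precursor, was at 3.34, 5.8, 12.1 and 10.4 CPM in the fovea and 16, 14.9, 25.4 and 28.4 CPM in the nasal retina (log2 fold change -1.50, standard error 0.17, adjusted p = 6.53e-05). PAX6, a homeodomain factor of amacrine, horizontal and ganglion cells, ran the other way, with 646 ± 44.8 CPM in the fovea and 347 ± 12.7 CPM in the nasal retina (log2 fold change 0.90, standard error 0.06, adjusted p = 2.14e-06). SLC6A9, the glycine transporter of glycinergic amacrine cells, changed by -0.61. Among the horizontal cell markers, CALB1, the calcium buffer calbindin, was higher in the fovea (log2 fold change 0.72, standard error 0.07, adjusted p = 2.83e-05), whereas PROX1 and MEGF11 were higher in the nasal retina, with log2 fold changes of -0.37 and -0.74.

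**Figure D3:**
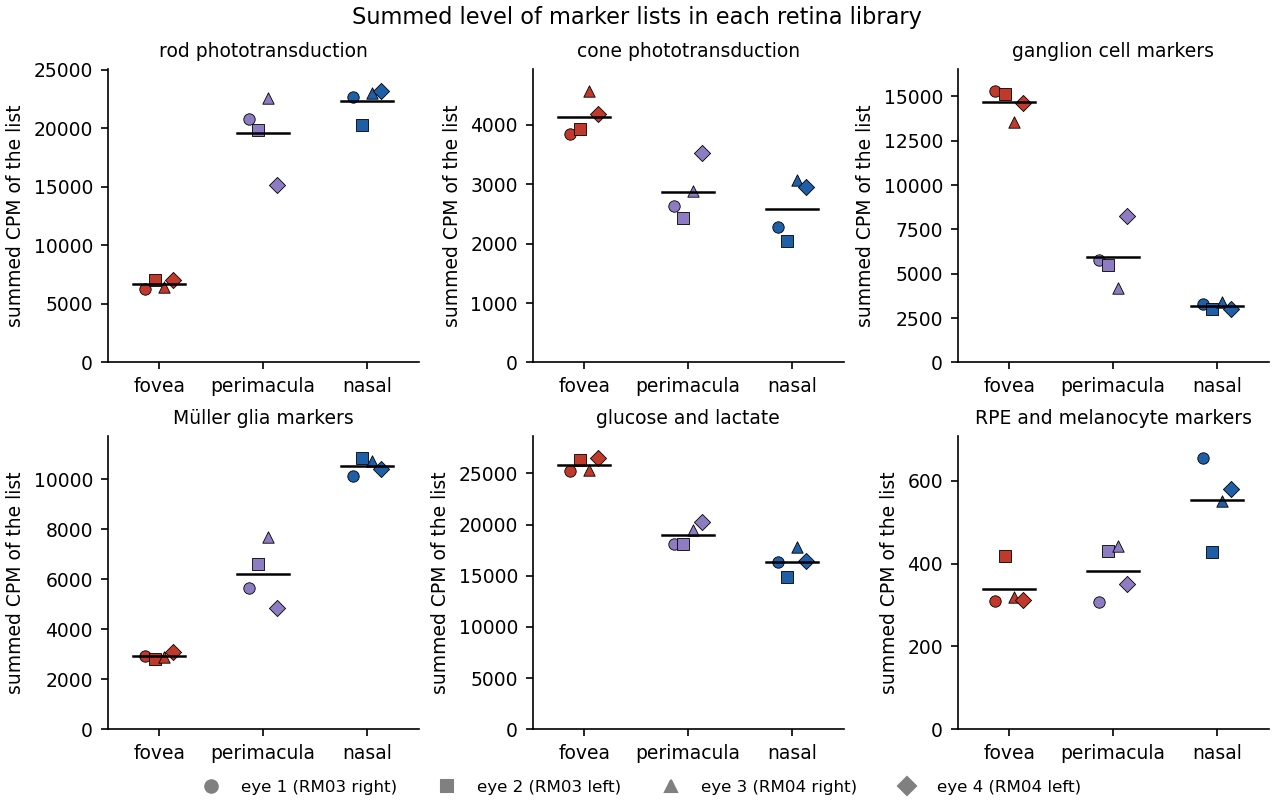
Points give the summed CPM of a marker list in each retina library, with the 4 eyes as separate symbols, and the line is the mean of the 4 eyes. Fovea and nasal libraries do not overlap in any of the 6 panels. For the RPE and melanocyte markers, however, eye 2 is nearly level at 418 CPM in the fovea and 428 CPM in the nasal retina. A large part of the nasal Müller glia sum is TF, at a mean of 5420 CPM against 232 CPM in the fovea. Relative to the level of each list, the perimacula libraries are spread most for the ganglion cell list (4200 to 8264 CPM) and the Müller glia list (4840 to 7690 CPM).

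Most glial markers were higher in the nasal retina. Müller glia span the retina from its inner surface to the photoreceptors, recycling transmitter and buffering ions, and astrocytes enter with the optic nerve and lie along nerve fibres and vessels. Of 16 Müller markers tested, 15 were called higher in the nasal retina and none in the fovea (median -0.74, against 28.5% of all genes). TF, transferrin, the iron carrier, was at 234, 262, 193 and 240 CPM in the fovea and 5183, 5642, 5526 and 5330 CPM in the nasal retina, the largest change on this list (log2 fold change -4.55, standard error 0.10, adjusted p = 3.49e-08). The lowest nasal value of TF was far above its highest fovea value. RLBP1, which binds 11-cis retinoids, was at 174, 202, 142 and 147 CPM in the fovea and 799, 806, 688 and 656 CPM in the nasal retina (log2 fold change -2.15, standard error 0.06, adjusted p = 3.77e-08). VIM, the intermediate filament vimentin, changed by -1.59, CRYAB, a small heat shock protein, by -1.35, and APOE, the lipid carrier, by -1.20. GLUL and SLC1A3, which convert and take up glutamate, changed by -0.38 and -0.64, although 2 identifiers carry the symbol GLUL. CA14 was the member not called, with 30.9 ± 3.85 CPM in the fovea and 38.5 ± 11.5 CPM in the nasal retina (adjusted p = 0.0633). It was called with DESeq2 (adjusted p = 0.03), with library totals alone (0.0334), on the first flow cell alone (0.0261), without eye 1 (0.0391) or eye 2 (0.0162), and without the fovea library of eye 1 (0.0179) or the nasal library of eye 2 (0.00582).

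Of 6 astrocyte markers, 5 were called higher in the nasal retina and 1, S100B, higher in the fovea (median -1.40). Among all genes, 57.9% were called, 28.5% toward the nasal side. PAX2, a paired-box factor of optic nerve astrocytes and of the ventral eye cup, was at 0.0217, 0.0741, 0.0346 and 0.0173 CPM in the fovea and 1.22, 1.73, 1.86 and 2.28 CPM in the nasal retina, from summed counts of 8 and 436, a ratio of 48.3 (adjusted p = 2.07e-06). GJA1, the gap junction protein connexin 43, was at 1.28, 1.87, 3.04 and 2.47 CPM in the fovea and 11.3, 9.89, 14.8 and 18.2 CPM in the nasal retina (log2 fold change -2.66, standard error 0.14, adjusted p = 6.07e-07). Neither gene's groups overlapped. GFAP, the filament of astrocytes and reactive Müller glia, was at 16.4, 15.4, 9.32 and 13.1 CPM in the fovea and 100, 161, 13.9 and 14 CPM in the nasal retina. Its difference was large in RM03 and small in RM04, and the change differed between the animals (difference of 2.72 in log2 fold change, adjusted p = 0.0222). Its call over all eyes (log2 fold change -1.72, standard error 0.52, adjusted p = 0.019) was lost without eye 1 (adjusted p = 0.0701), without eye 2 (0.0971) and without the fovea library of eye 2 (0.0865). S100B, a calcium-binding protein of glia (log2 fold change 0.51, standard error 0.16, adjusted p = 0.0225), was no longer called without eye 1, 2 or 4 (adjusted p = 0.079, 0.102 and 0.0578) or without the nasal library of any of them (0.0778, 0.0665 and 0.0602).

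Markers of microglia and vessels were also higher in the nasal retina where they were called. Of the microglia markers, 6 of 11 were called, all toward the nasal side (median -0.58), against 57.9% of all genes called in either direction and 28.5% toward the nasal side. The counts were 7 of 14 for endothelial cells (median -0.36) and 7 of 10 for mural cells, the pericytes and smooth muscle of vessels (median -0.52), again all toward the nasal side. The shares called for microglia and endothelial markers, 6 of 11 and 7 of 14, lie near or below that of all genes. CSF1R, the growth factor receptor of microglia and macrophages, was at 10.1, 8.99, 8.34 and 11.2 CPM in the fovea and 20.1, 20.4, 16.3 and 14.8 CPM in the nasal retina (log2 fold change -0.88, standard error 0.12, adjusted p = 2.57e-04). CLDN5, a tight junction protein of the blood-retina barrier, was at 0.802, 1.89, 1.38 and 1.14 CPM in the fovea and 5.35, 9.94, 2.83 and 3.56 CPM in the nasal retina (log2 fold change -1.93, standard error 0.34, adjusted p = 0.00114), and KDR, a receptor for VEGF, changed by -0.76. The summed level of the microglia list was 55.3 to 68.2 CPM in the fovea, 85.8 to 106 CPM in the nasal retina and 2837 to 3814 CPM in nasal RPE/choroid, and the part of carried-over choroid in these differences was not tested.

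Of 11 markers of RPE and melanocytes, the pigmented cells of the neighbouring tissue, 7 were called higher in the nasal retina and 2 higher in the fovea (median -0.79). Calls made up 81.8% of the list, against 57.9% of all genes. The summed level was 310 to 418 CPM in the fovea and 428 to 655 CPM in the nasal retina, against 16352 to 21072 CPM in nasal RPE/choroid. RPE65, the isomerase of the visual cycle in RPE, was at 56.3, 105, 66.4 and 54.9 CPM in the fovea and 190, 116, 115 and 121 CPM in the nasal retina (log2 fold change -0.94, standard error 0.20, adjusted p = 0.00323), and its mean in nasal RPE/choroid was 6770 CPM. TF was at a mean of 163 CPM in nasal RPE/choroid, which is below its level in every fovea and nasal retina library. RLBP1 was at 2105 CPM there. The part of carried-over RPE in the differences of the glial and RPE markers was not tested. MITF, the master regulator of pigment cells, was called in the other direction, at 45.5, 44.3, 34.8 and 40.7 CPM in the fovea and 13, 16.8, 14.6 and 12.7 CPM in the nasal retina (log2 fold change 1.53, standard error 0.10, adjusted p = 1.56e-06), and DCT was called toward the fovea at a low level (0.524 ± 0.175 CPM in the fovea and 0.285 ± 0.0991 CPM in the nasal retina, adjusted p = 0.0459). The DCT call was lost with DESeq2 (adjusted p = 0.0908) and in 8 of the fits that left out an eye or a library, of which the fit without eye 2 gave the highest adjusted p (0.174). Values in RPE/choroid were normalized over all 32 libraries, those of the perimacula with the 12 retina libraries of the shared flow cells, and those of the fovea and nasal retina over their 8 libraries.

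Transcription factors that set the nasal-temporal and dorsal-ventral axes of the embryonic eye differed in both directions. Of 12 tested, 4 were called higher in the nasal retina and 4 in the fovea, a share of 66.7% against 57.9% of all genes (28.5% and 29.4% by direction). FOXD1 (ENSMMUG00000040510), the forkhead factor of the temporal retina, was at 9.98, 4.73, 4.03 and 5.02 CPM in the fovea and 0.139, 0.0664, 0.0517 and 0.0296 CPM in the nasal retina, from summed counts of 1239 and 17, a ratio of 82.2 (adjusted p = 8.31e-07). Every nasal library held 2 to 8 FOXD1 counts, and the groups lay far apart. In the perimacula, FOXD1 was at 5.98, 3.24, 2.3 and 7.54 CPM, which overlapped its fovea range.

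TBX5, a T-box factor of the dorsal retina, was at 2.47, 3.69, 6.49 and 11 CPM in the fovea and 0.0521, 0.249, 0.276 and 1.01 CPM in the nasal retina (log2 fold change 3.94, standard error 0.44, adjusted p = 5.35e-05). VAX2, a homeodomain factor of the ventral retina, was at 9.61, 13.5, 12.9 and 12 CPM in the fovea and 26.6, 27.1, 38.8 and 34.7 CPM in the nasal retina (log2 fold change -1.39, standard error 0.12, adjusted p = 9.73e-06), and PAX2, given above, was also higher on the nasal side. The groups did not overlap for any of these, though TBX5 spanned more than 4-fold among the fovea libraries. ZFHX3 and ZFHX4, large zinc finger homeodomain factors, were at higher level in the fovea, with 106 ± 6.87 CPM in the fovea and 42.4 ± 4.77 CPM in the nasal retina for ZFHX3 and 143 ± 10.4 CPM in the fovea and 44.5 ± 5.56 CPM in the nasal retina for ZFHX4. NR2F1 was higher in the nasal retina (-0.71). HMX1, a nasal homeodomain factor in other vertebrates, was at 0.217, 1.83, 1.64 and 1.26 CPM in the fovea and 2.78, 3.6, 1.86 and 2.29 CPM in the nasal retina and was not called (adjusted p = 0.0837), although the groups did not overlap, and it was called without eye 1 (0.0156), without the fovea library of eye 1 (0.0128) and with DESeq2 (0.0378). The other 3 factors tested were not called. HMX3 did not pass the filter on low counts, with 6 counts over the fovea libraries and none over the nasal libraries.

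All 6 iroquois genes, homeodomain factors with roles in retinal patterning and in inner retinal neurons, were called higher in the fovea (median 1.77). Over all genes, 29.4% were called in that direction. IRX2 was at 37.8, 45.7, 28.2 and 32.7 CPM in the fovea and 6.1, 6.34, 6.08 and 4.86 CPM in the nasal retina (log2 fold change 2.61, standard error 0.11, adjusted p = 1.85e-07). IRX1 changed by 2.43, IRX3 by 1.91, IRX6 by 1.23 and IRX5 by 1.05, with no overlap between the groups. IRX4 was low, with 1.1 ± 0.469 CPM in the fovea and 0.352 ± 0.17 CPM in the nasal retina, its groups overlapped, and it was not called without eye 3 (adjusted p = 0.0639) or eye 4 (0.0694).

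**Figure D4:**
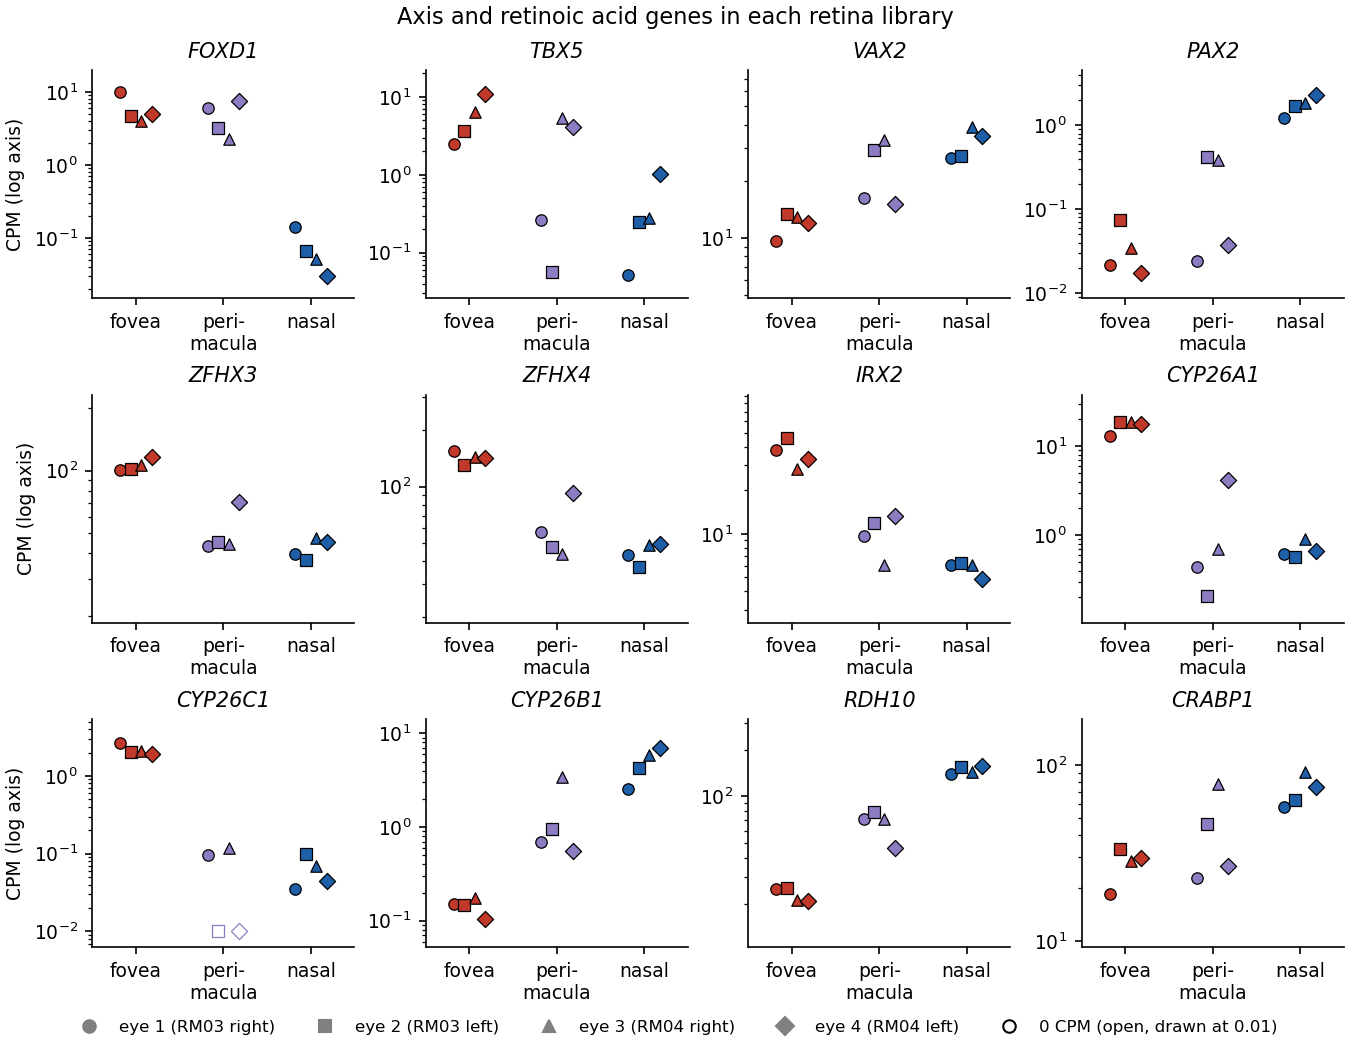
Panels give 12 genes of retinal axes and retinoic acid handling, with each retina library of the fovea, perimacula and nasal location as a point and CPM on a log axis. Open symbols are libraries with no count, drawn at 0.01 CPM. FOXD1 is higher in fovea and perimacula, CYP26A1 is highest in the fovea, and CYP26B1 and RDH10 rise from fovea to nasal in every eye.

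Genes that make and break down retinoic acid, a vitamin A derivative that patterns the eye, were split between the locations. Of 19 genes of this list, 9 were called higher in the nasal retina and 5 higher in the fovea (median -0.11). The share called was 73.7%, against 57.9% of all genes (28.5% toward the nasal side and 29.4% toward the fovea). The 3 CYP26 enzymes, which degrade retinoic acid, did not move together. CYP26A1 was at 13, 18.9, 18.6 and 17.6 CPM in the fovea and 0.608, 0.564, 0.913 and 0.665 CPM in the nasal retina (log2 fold change 4.64, standard error 0.17, adjusted p = 7.76e-08). CYP26C1 was at 2.67, 2.04, 2.08 and 1.9 CPM in the fovea and 0.0347, 0.0996, 0.0689 and 0.0444 CPM in the nasal retina, from summed counts of 463 and 15, a ratio of 34.8 (adjusted p = 6.10e-07). CYP26B1 was at 0.152, 0.148, 0.173 and 0.104 CPM in the fovea and 2.52, 4.22, 5.82 and 7.05 CPM in the nasal retina, from summed counts of 31 and 1214, a ratio of 34.7 (adjusted p = 9.34e-07). CYP26A1 and CYP26C1 were thus fovea-high and CYP26B1 nasal-high in 4 of 4 eyes, with no overlap.

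RDH10, the retinol dehydrogenase that makes the retinaldehyde from which retinoic acid is formed, was at 25, 25.4, 21.2 and 21 CPM in the fovea and 140, 155, 144 and 158 CPM in the nasal retina (log2 fold change -2.69, standard error 0.08, adjusted p = 3.77e-08). Its nasal values lay far above its fovea values in all 4 eyes. Of the retinaldehyde dehydrogenases that complete the synthesis, ALDH1A1 changed by -0.53 with overlapping groups and was not called without eye 2 (adjusted p = 0.0642), and ALDH1A2 was not called, at 1.15 ± 0.691 CPM in the fovea and 0.851 ± 0.357 CPM in the nasal retina. Of the carriers, CRABP1 was higher in the nasal retina (-1.37) while CRABP2 and RBP4 were higher in the fovea (1.48 and 1.25). Of the receptors, RARB and RARG were higher in the nasal retina (-1.28 and -0.81). RDH10 was at a mean of 246 CPM in nasal RPE/choroid, and the part of RPE carry-over in its difference was not tested.

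Ephrins and Eph receptors are the contact signals by which ganglion cell axons find their positions in the brain. They were called in 18 of 19 cases, 11 higher in the fovea and 7 higher in the nasal retina (median 0.42). This share of 94.7% compares with 57.9% of all genes. Most EphA receptors were higher in the fovea. EPHA6 was at 18.1, 16.5, 15.4 and 16.8 CPM in the fovea and 3.94, 3.15, 3.62 and 3.15 CPM in the nasal retina (log2 fold change 2.27, standard error 0.10, adjusted p = 2.18e-07), and EPHA5, EPHA4 and EPHA7 changed by 1.69, 1.46 and 0.80. EPHA3 and EPHA2 ran the other way, by -1.04 and -1.44. The ligands EFNA1 and EFNA3 were higher in the fovea (1.72 and 1.18), and EFNA5 was higher in the nasal retina (-0.67). In the B class, EPHB6, a receptor that lacks kinase activity, had the largest change, with 35.2 ± 9.91 CPM in the fovea and 9.06 ± 2.91 CPM in the nasal retina (log2 fold change 1.97, standard error 0.12, adjusted p = 1.11e-06), whereas EPHB3, EPHB4 and EFNB1 were higher in the nasal retina, with log2 fold changes of -0.57, -0.89 and -0.75.

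Of 29 genes of BMP, FGF and Wnt signalling, 25 were called, 17 higher in the nasal retina and 8 higher in the fovea (median -0.75). The share called was 86.2%, against 57.9% of all genes (28.5% toward the nasal side and 29.4% toward the fovea). Among the ligands, FGF9 was higher in the fovea, at 70.8, 69.1, 58.9 and 58.3 CPM in the fovea and 14.5, 15.2, 14.5 and 13.6 CPM in the nasal retina (log2 fold change 2.15, standard error 0.06, adjusted p = 3.77e-08). FGF1 and the intracellular FGF12 changed the same way, by 1.33 and 1.33. BMP4, a dorsal signal of the eye, BMP7, and WNT2B, a ligand of the ciliary margin, were higher in the nasal retina, with log2 fold changes of -1.17, -0.89 and -3.04. Among the receptors, FGFR3 was at 0.586, 0.945, 1.4 and 1.64 CPM in the fovea and 3.66, 3.2, 7.01 and 6.64 CPM in the nasal retina (log2 fold change -2.16, standard error 0.15, adjusted p = 3.18e-06), BMPR1B changed by -1.71 and FGFR1 by -1.40. Of the list, 4 genes were not called.

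The secreted Wnt inhibitors differed in direction. WIF1 was at 151, 153, 219 and 227 CPM in the fovea and 504, 566, 597 and 627 CPM in the nasal retina (log2 fold change -1.63, standard error 0.08, adjusted p = 3.57e-07), and SFRP2 also was higher in the nasal retina (-1.25). SFRP1 was higher in the fovea, at 17, 13.5, 27.3 and 29.3 CPM in the fovea and 4.24, 3.39, 9.61 and 8.32 CPM in the nasal retina (log2 fold change 1.82, standard error 0.12, adjusted p = 2.21e-06). These groups did not overlap. DKK1, an inhibitor of the Wnt co-receptor, was at 0.239, 0.0741, 0.225 and 0.414 CPM in the fovea and 0.156, 0.166, 8.56 and 29.1 CPM in the nasal retina, so that its call (adjusted p = 0.00282) rests on the nasal libraries of RM04, and it was lost without eye 4 (adjusted p = 0.0914). NDP and FZD4, the norrin ligand and its receptor, which direct retinal vessel growth, were both higher in the nasal retina, with log2 fold changes of -0.73 and -0.71.

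Ion channels of spiking neurons were mostly higher in the fovea. Of 32 voltage-gated channel genes, 18 were called higher in the fovea and 7 higher in the nasal retina (median 0.58). Calls made up 78.1% of the list, against 57.9% of all genes (29.4% toward the fovea and 28.5% toward the nasal side). KCNC2, a fast-activating potassium channel subunit, was at 1093, 887, 962 and 943 CPM in the fovea and 153, 133, 183 and 165 CPM in the nasal retina (log2 fold change 2.62, standard error 0.10, adjusted p = 1.04e-07). The sodium channel subunits SCN1A and SCN8A changed by 1.64 and 1.83, and CACNA1H, a low-threshold calcium channel, by 2.02. CACNA1F and KCNV2, channels that photoreceptors use, were higher in the nasal retina, with log2 fold changes of -1.03 and -0.79. Of the sodium pump subunits, ATP1B1 was higher in the fovea (1.56) and ATP1B2 higher in the nasal retina (-0.84). The carbonic anhydrase CA12 was at 1.5, 3.24, 2.94 and 2.31 CPM in the fovea and 19, 20.9, 21.4 and 20.1 CPM in the nasal retina (log2 fold change -3.02, standard error 0.20, adjusted p = 1.85e-06), while CA11, which lacks enzyme activity, was higher in the fovea (1.14). In the list of pumps and anhydrases 6 were called toward the fovea and 4 toward the nasal side, of 12 tested. This share of 83.3% compares with 57.9% of all genes.

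Of 36 receptor genes for glutamate, GABA and glycine, 16 were called higher in the fovea and 11 higher in the nasal retina (median 0.15). The share called was 75%, against 57.9% of all genes (29.4% toward the fovea and 28.5% toward the nasal side). GRIN1, the obligatory NMDA receptor subunit, was at 253, 266, 272 and 271 CPM in the fovea and 84.8, 84.3, 93.2 and 92.7 CPM in the nasal retina (log2 fold change 1.58, standard error 0.04, adjusted p = 3.77e-08), and GRIN2A and GRIN2B changed by 1.91 and 1.40. GRIA2, GRIA3 and GRIA4, AMPA receptor subunits, were higher in the fovea (1.12, 0.89 and 0.83), whereas GRIA1 was higher in the nasal retina, with 39.6 ± 8.34 CPM in the fovea and 79 ± 14.2 CPM in the nasal retina. GRIK3, a kainate receptor subunit, changed by -1.71. GLRB, the shared glycine receptor subunit, changed by 1.49, and GABRR1 and GABRR2, the GABA receptors of bipolar cells, by -0.54 and -0.52.

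Glycolysis genes were nearly all higher in the fovea. Of 22 genes of glucose and lactate handling, 18 were called higher in the fovea and 2 higher in the nasal retina (median 0.78). The share called was 90.9%, against 57.9% of all genes. The summed level of this list was 25239 to 26532 CPM in the fovea and 14871 to 17777 CPM in the nasal retina. ALDOC, the aldolase of neurons and glia, was at 2604 ± 202 CPM in the fovea and 1090 ± 124 CPM in the nasal retina (log2 fold change 1.26, standard error 0.07, adjusted p = 5.61e-07), PFKM changed by 0.84 and PGAM1 by 0.64. SLC16A3, a lactate exporter, was at 30.2, 47.6, 54 and 54.1 CPM in the fovea and 8.16, 11.6, 14.1 and 12.2 CPM in the nasal retina (log2 fold change 2.01, standard error 0.16, adjusted p = 5.32e-06). HK2, the hexokinase of photoreceptors, and SLC16A1, a lactate transporter, were the members higher in the nasal retina, with log2 fold changes of -0.20 and -0.40, and HK2 was not called without eye 3 (adjusted p = 0.0927) or eye 4 (0.0569). SLC2A1, the main glucose transporter, was at 479 ± 77.1 CPM in the fovea and 457 ± 77 CPM in the nasal retina and was not called. For GAPDH, PKM, TPI1, PGK1, LDHA, LDHB, ALDOA, GPI, ENO1, PFKP and SLC2A3 between 2 and 7 identifiers carry the symbol, so that their values are uncertain.

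Of 20 genes tied to inherited or age-related macular disease, 17 were called higher in the nasal retina and none in the fovea (median -0.69). Over all genes, 28.5% were called toward the nasal side. Several members of this list are photoreceptor genes. ABCA4, the retinoid flippase of outer segments that is mutated in Stargardt disease, was at 998, 1071, 1035 and 1055 CPM in the fovea and 2678, 2537, 2586 and 2833 CPM in the nasal retina (log2 fold change -1.35, standard error 0.05, adjusted p = 1.39e-07), and ELOVL4 and PROM1 changed by -0.92 and -1.18. TIMP3 and EFEMP1, matrix proteins, changed by -0.74 and -0.99, and C3 by -0.45. The other 3 were not called.

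Ranked by size among called genes whose mean reached 3 log2 CPM and whose groups did not overlap, the 15 genes furthest toward the fovea ran from 3.42 to 2.49 and the 15 furthest toward the nasal side from -4.55 to -2.19. PERM1, a muscle regulator of mitochondrial genes, was at 26.3, 37.1, 34.5 and 33.5 CPM in the fovea and 3.07, 3.44, 2.65 and 3.12 CPM in the nasal retina (log2 fold change 3.42, standard error 0.13, adjusted p = 1.05e-07). It was followed by GALNT14 (2.91), a glycosyltransferase, GPR149 (2.90), an orphan receptor, TMEM74B (2.80), EBF2, CCDC33, SEC16B, TRPM2 (2.70), a calcium-permeable channel, ADCY3 (2.67), an adenylyl cyclase, KCNC2, NEFM, IRX2, CHAC1, PAPPA and AHNAK2.

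SPP1, osteopontin, was at 107, 92.5, 101 and 101 CPM in the fovea and 532, 546, 640 and 664 CPM in the nasal retina (log2 fold change -2.56, standard error 0.07, adjusted p = 3.77e-08), and at a mean of 1277 CPM in nasal RPE/choroid. Among the other genes furthest toward the nasal side, TF, RDH10 and FOXP2 are described above. They were joined by FNDC1, CHRNA3, a nicotinic receptor subunit, ID3, an inhibitor of helix-loop-helix factors, CDH23, a cadherin, RBBP8, a DNA repair factor, CRYM, a thyroid hormone binding protein, AOX2, PKHD1, SPNS3 and TFPI2. Of these, CHRNA3 was at 36.7 ± 8.77 CPM in the fovea and 201 ± 25.2 CPM in the nasal retina and CDH23 at 31.6 ± 16.5 CPM in the fovea and 145 ± 50.7 CPM in the nasal retina.

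**Figure D5:**
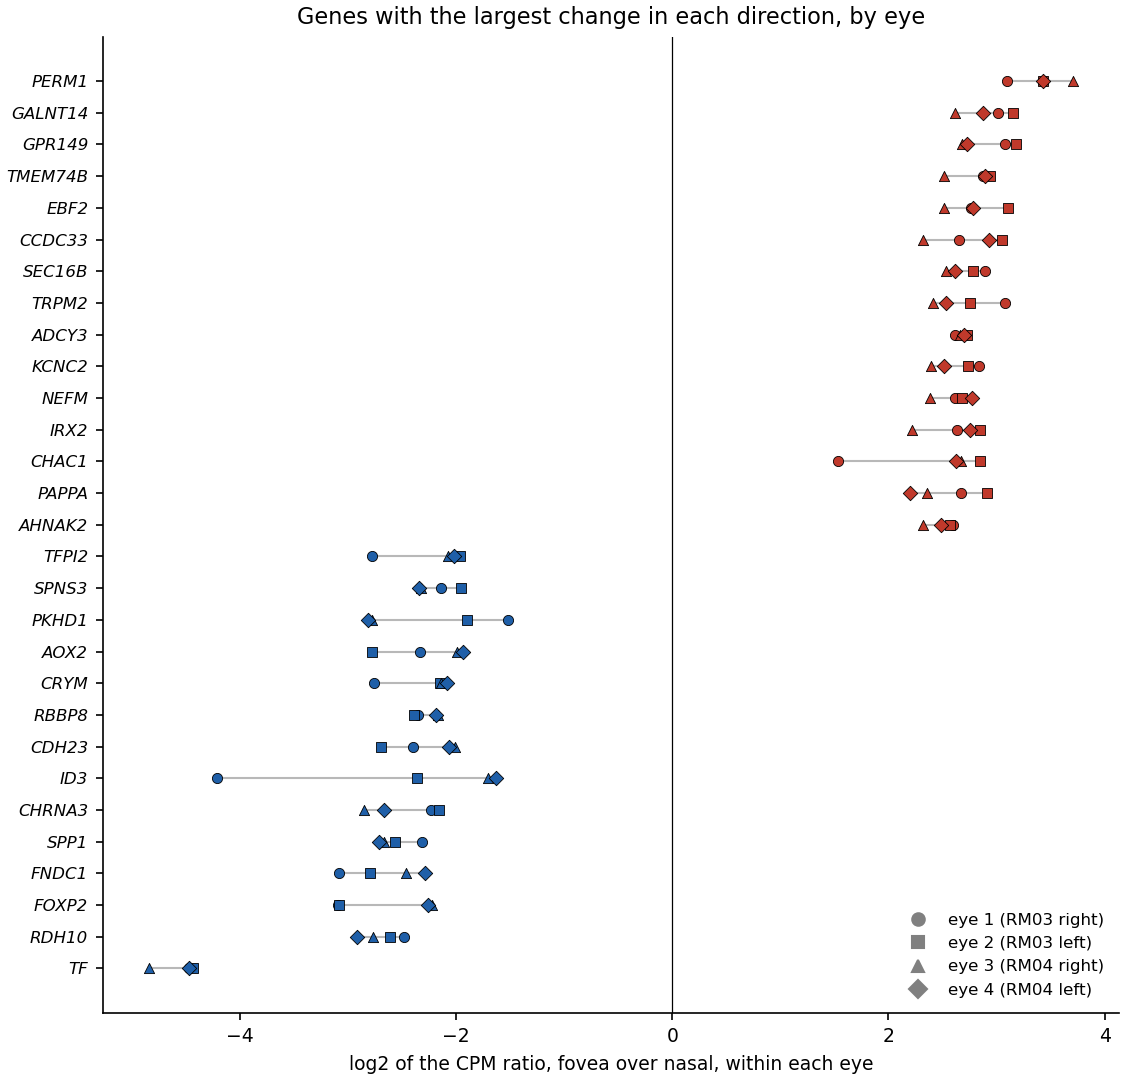
For genes with the largest change in each direction, points give the log2 ratio of the fovea CPM to the nasal CPM within each of the 4 eyes, and the grey line spans them. All 4 eyes lie on the same side of 0 for each gene because the rule that chose these genes required it. The eyes agree closely for ADCY3, RBBP8 and AHNAK2, and are spread widest for ID3, CHAC1 and PKHD1.

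Among the most abundant called genes, ND4, ND5, ND2, ND1 and ND4L, subunits of respiratory complex I encoded by the mitochondrial genome, were higher in the nasal retina by small amounts, with log2 fold changes from -0.46 to -0.27. The groups of ND4, ND1 and ND4L overlapped. ND1 was at 9771, 7887, 4128 and 4072 CPM in the fovea and 11639, 10191, 6084 and 5409 CPM in the nasal retina. For ND1 the animals lay further apart than the locations, though the nasal value was higher in every eye. ND4 was at 11665 ± 2063 CPM in the fovea and 14561 ± 2580 CPM in the nasal retina (adjusted p = 0.0147), and was not called without eye 3 (adjusted p = 0.0959). ND4L was not called without eye 3 (0.107), without eye 4 (0.0756), or without the fovea library of eye 4 or the nasal library of eye 1 or 3 (0.065, 0.0594 and 0.0764). RBP3, the retinoid carrier between photoreceptors and RPE, was at 2858, 4076, 4294 and 4387 CPM in the fovea and 8911, 8096, 10547 and 10927 CPM in the nasal retina (log2 fold change -1.30, standard error 0.10, adjusted p = 6.18e-06). Toward the fovea, NDRG4, a neuronal cytoplasmic protein, was at 4048, 4155, 4249 and 4462 CPM in the fovea and 1113, 1029, 1229 and 1128 CPM in the nasal retina (log2 fold change 1.91, standard error 0.06, adjusted p = 4.39e-08), and MAP1B and TUBA1B, parts of the microtubule cytoskeleton, changed by 1.35 and 0.93. ENO2, the neuronal enolase, changed by 0.24, with an adjusted p of 0.0505 without eye 4.

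The perimacula, a further retinal location on the same flow cells, gives the nasal values a further reference. Of 15288 genes tested, 534 (3.49%) were called between nasal retina and perimacula, 282 higher in the nasal retina and 252 lower. This count depended on single eyes, being 58 without eye 1, 2 without eye 2, 400 without eye 3 and 46 without eye 4, and the calls of single genes given here rest on the same fit. Both comparisons use the same nasal libraries. TF was at 2032, 2617, 3313 and 1396 CPM in the perimacula, between its fovea and nasal levels in every eye (nasal over perimacula, log2 fold change 1.23, standard error 0.21, adjusted p = 0.0142). RDH10 likewise lay between them, at 71.2, 78.9, 71.7 and 46.5 CPM (nasal over perimacula, log2 fold change 1.18, standard error 0.12, adjusted p = 0.00235). NEFM was at 1365, 1177, 820 and 1921 CPM there (nasal over perimacula, log2 fold change -1.14, standard error 0.20, adjusted p = 0.0157). FOXD1 was lower in the nasal retina than in the perimacula too (nasal over perimacula, log2 fold change -6.06, standard error 0.56, adjusted p = 9.63e-04).

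Other genes that separated fovea from nasal retina did not separate the perimacula from it at this threshold. No rod or cone phototransduction gene was called between nasal retina and perimacula. Since 3.49% of all genes were called there, no call among so few genes lies near that share. SAG was at 4695, 4581, 6393 and 3835 CPM in the perimacula (nasal over perimacula, log2 fold change 0.26, standard error 0.14, adjusted p = 0.328). CYP26A1 was at 0.434, 0.207, 0.693 and 4.15 CPM (nasal over perimacula, log2 fold change -0.79, standard error 0.63, adjusted p = 0.538), with eye 4 above the other eyes. SST was at 1.41 ± 1.37 CPM in the perimacula (nasal over perimacula, log2 fold change 0.02, standard error 0.46, adjusted p = 0.987). By contrast, 10 of 16 Müller markers were called higher in the nasal retina than in the perimacula and 9 of 15 ganglion cell markers lower. Of all 15288 genes tested, 282 were called higher and 252 lower. Without eye 2 the whole fit held 2 calls, so these list counts could not hold there. TBX5 in the perimacula was at 0.265 and 0.0565 CPM in RM03 and at 5.41 and 4.09 CPM in RM04.

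The change from fovea to nasal retina differed between the 2 animals in 36 of 15132 genes (0.238%), and 1851 genes passed 0.05 before adjustment. The genes with the lowest p were the entry deposited as C15H9orf84, GPR4, KRT7, KLF7 and C3P1. GPR4, a proton-sensing receptor, was at 14, 15.9, 1.26 and 1.07 CPM in the fovea and 78.7, 80.1, 0.81 and 0.503 CPM in the nasal retina, and KRT7, a keratin, was at 30.3, 44.8, 3.08 and 3.28 CPM in the fovea and 2.93, 3.25, 3.12 and 2.59 CPM in the nasal retina. GPR4 was below 2 CPM at either location in RM04, and KRT7 was nearly level between the locations in RM04. With the eye as block KRT7 was not called between fovea and nasal retina (adjusted p = 0.0559). Its call was also lost without eye 1 (0.0953) or eye 2 (0.16). The same held without the fovea library of eye 2 (0.0509) or the nasal library of eye 1 (0.131) or eye 2 (0.128). GPR4 was not called in the main fit (adjusted p = 0.0514), but was under several alternatives, among them RLE normalization (0.0494) and leaving out eye 3 (0.0317) or eye 4 (0.023). KLF7, a zinc finger factor of ganglion cells, was at 21, 21.5, 19.4 and 19.7 CPM in the fovea and 20.8, 17.8, 5.1 and 5.57 CPM in the nasal retina, with the nasal libraries of RM04 lower, and its fovea to nasal call was lost without eye 3 (adjusted p = 0.123), eye 4 (0.134) or the nasal library of either (0.0815 and 0.0875). Of the list members, GFAP, KLF7 and EFEMP1 had a called difference between the animals.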

How the data were processed

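RNA of 8 neural retina libraries was compared, 4 from the fovea and 4 from the nasal location of the same 4 eyes. The authors quantified the reads with Salmon 0.13 against Mmul_8.0.1 and deposited, per lane, estimated counts (length-scaled from TPM) under gene symbols and identifiers. Lane values were summed per library and rounded to whole numbers, and 10 repeated identifiers were counted once. Of the identifiers, 14579 had a name in the gene table and 749 of these differed from the deposited symbol, so entries whose names differed were left out of the list counts.

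Genes were filtered with filterByExpr (minimum count 10), normalized by TMM and tested with edgeR 4.0.16 (quasi-likelihood test; limma 3.58.1, R 4.3.3), with the animal as covariate and Benjamini-Hochberg adjustment at 0.05. Tables and plots used Python 3.11.15, pandas 2.3.3, numpy 2.4.6 and matplotlib 3.10.9. The tests were tried on simulated data with changes of 1.5 on the log2 scale. With 198 of 15057 genes changed between fovea and nasal retina, 96% were recovered and 5% of the calls were false. For the difference between the animals 74.4% were recovered and 8.07% of the calls were false, and for nasal retina against perimacula 95% and 4.06%. The simulated libraries were independent, with no animal effect on the base level and few changed genes. These rates therefore need not hold for fellow eyes with many changed genes. Depth was 48224379 to 64466280 estimated counts per library, so precision is limited by the number of eyes more than by counting for all but the lowest genes. Intervals and floors cover counting error only.

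Named genes are members of the gene lists, the 15 largest changes in each direction among called genes whose mean reached 3 log2 CPM, with the same direction in 4 of 4 eyes and no overlap, the 10 called genes of highest CPM in each direction, and the 5 with the lowest p for a difference between the animals. The members and lists were chosen with earlier results of these data known. The eye numbers pair libraries, since the labels give the same eye at both locations. Deviations from the group means correlated at 0.546 to 0.75 for the same eye, 0.418 to 0.748 for fellow eyes and -0.765 to -0.48 between animals, and at 0.185 (RM03) and 0.065 (RM04) once the animal's mean was removed.

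Alternatives were DESeq2 1.42.0, RLE and library-total normalization, the eye as block, no filter or 10 counts or more in each library, no covariate, 12 or all 16 retina libraries in the fit, each flow cell alone, and leaving out each eye or each library. Some genes that the rule selects are not reported here.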

Additional observations from a re-analysis of the deposited data

Results flagged for a closer look

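The fovea to nasal change differed between the animals, by a test of that difference, in 7 of the genes named. As RM04 minus RM03 on the log2 scale, the difference was 3.25 for GPR4, 2.95 for the entry deposited as C15H9orf84 and 2.72 for GFAP. It was 2.27 for C3P1, 1.73 for KLF7, -1.12 for EFEMP1 and -3.44 for KRT7. C3P1 was at 4.08, 5.28, 9.6 and 7.63 CPM in the fovea and 47, 44.6, 17.6 and 17.4 CPM in the nasal retina, so its direction was the same in both animals.

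In 17 of 416 groups of 4 libraries a single library lay apart from the other 3, and chance gives about 1 in 20 such groups. Eye 1 stood apart in the fovea for FOXD1 (9.98 CPM, highest), EPHB4 (2.1 CPM, highest), IRX3 (6.9 CPM, lowest), NR2E3 (44.7 CPM, lowest) and NR2F1 (7.79 CPM, lowest). Eye 1 in the nasal retina stood apart for RPE65 (190 CPM, highest) and SFRP2 (24.3 CPM, lowest). Eye 2 stood apart in the fovea for PDE6B (284 CPM, highest) and AHNAK2 (501 CPM, lowest) and in the nasal retina for TRPM1 (131 CPM, highest) and MAP1B (1134 CPM, lowest). Eye 3 stood apart in the fovea for RARB (13.5 CPM, highest), SST (0.104 CPM, highest) and GLUL (618 CPM, lowest), and in the nasal retina for GRIN2B (1.17 CPM, highest), PROX1 (36 CPM, lowest) and DCT (0.138 CPM, lowest).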

How the results depend on the processing

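The number of genes called between fovea and nasal retina stayed within 1.5 times of 8767 under every alternative run, from 6864 without eye 4 to 9452 without the fovea library of eye 1, and every call shared with an alternative had the same direction. With the eye as replicate block 8218 genes were called, 8126 of them shared, and among the genes named KRT7 was the one whose call the block changed. The count of genes whose change differed between the animals was 36, against 228 with DESeq2 and 21 and 19 on either flow cell alone. For nasal retina against perimacula it was 534, against 1287 with DESeq2, 274 on the first flow cell alone, 50 with no covariate, and 2 to 400 when an eye was left out. The axis transcription factors had 8 calls, and 4 with at least 10 counts in every library, which removes genes with few counts in a location. Oligodendrocyte markers had 4 calls, and 2 on the first flow cell alone, with no covariate, and without eye 3 or 4, the fovea library of eye 4 or the nasal library of eye 1, 3 or 4, with a range of 2 to 5 over all such fits. Immediate early genes had 5 calls, 3 in the fit of 12 libraries, 1 in that of 16, 2 with no covariate, and 2 or 3 without eye 2 or 4, the fovea library of eye 4 or the nasal library of eye 2 or 4, with a range of 2 to 6 over all such fits. Of 202 called genes named, 182 kept call and direction under every alternative, 20 lost the call under at least 1 and none reversed. Eyes of 2 animals limit what can be said of other animals.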

Other observations

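Of 10 stress-response genes tested, 5 were called higher in the fovea and 3 higher in the nasal retina (median log2 fold change 0.36), against 29.4% and 28.5% of all genes. CHAC1, a glutathione-degrading enzyme induced by the unfolded protein response, was at 32.9, 99.2, 89.3 and 73.9 CPM in the fovea and 11.4, 13.8, 14 and 12 CPM in the nasal retina (log2 fold change 2.52, standard error 0.29, adjusted p = 7.86e-05), with the fovea library of eye 1 well below the other 3. ATF3, a stress-induced transcription factor, was at 2.71, 3.13, 4 and 3.76 CPM in the fovea and 0.781, 1.24, 1.43 and 0.798 CPM in the nasal retina (log2 fold change 1.67, standard error 0.22, adjusted p = 1.52e-04), and ASNS, asparagine synthetase, changed by 0.61. PHGDH, which starts serine synthesis, was higher in the nasal retina, at 9.61, 11.1, 17.2 and 15.6 CPM in the fovea and 22.6, 24.1, 31.3 and 33.1 CPM in the nasal retina (log2 fold change -1.07, standard error 0.08, adjusted p = 4.05e-06). Of 14 immediate early genes tested, 5 were called, all higher in the fovea (median 0.41). This share of 35.7% lies below the 57.9% of all genes called and near the 29.4% called toward the fovea, and the count was 3 without eye 2 and 2 without eye 4. JUN was at 43.4, 38.9, 29.3 and 33 CPM in the fovea and 29, 26.8, 25.7 and 23.1 CPM in the nasal retina (log2 fold change 0.46, standard error 0.08, adjusted p = 9.03e-04), with no overlap. These tissues were collected after death, and the part of handling in the differences was not tested.

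Of 7 oligodendrocyte markers tested, 3 were called higher in the nasal retina and 1 higher in the fovea, a share of 57.1% against 57.9% of all genes, and the count was 2 rather than 4 without eye 3 or eye 4. OLIG1, a factor of the oligodendrocyte lineage, was at 0.434, 4.08, 2.84 and 2.95 CPM in the fovea and 0.278, 0.448, 0.0689 and 0.133 CPM in the nasal retina (log2 fold change 3.52, standard error 0.70, adjusted p = 0.00211), with the fovea library of eye 1 at the nasal level.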
